A study of Mus musculus with 12 samples.

Results

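Amino acid supply and the integrated stress response were examined through 40 genes of the 24189 gene names shared by the plasmablast (PB) and plasma cell (PC) libraries. The genes were chosen by name, with earlier results of these data known, and all 40 were found. They comprise 11 transporters of amino acids, 11 enzymes of serine synthesis and one-carbon metabolism, 5 enzymes that make proline, asparagine, alanine or aspartate, and 13 stress regulators. RNA-seq was performed with 2 libraries for each of 5 groups of C57BL/6 mice. PBs came from the iGB culture, where feeder fibroblasts (40LB) present CD40L and BAFF to B cells given first IL-4 and then IL-21, and they were sorted on day 8 by surface markers that included CD138. Control PBs were Xbp1(fl/fl), Xbp1-deleted PBs were Cd23-Cre Xbp1(fl/fl), and a further pair of PB libraries came from Bhlha15(CreER/CreER) mice, in which CreER is inserted in the gene encoding Mist1. That allele is present in every cell of the mouse, and its PBs were compared with Xbp1(fl/fl) PBs. PCs were sorted from the spleen as TACI+CD138+ cells on day 7 after NP-KLH immunization. Control PCs are labelled wildtype in the repository and Bhlha15(fl/fl) in the study's sample list, and Mist1-deficient PCs were Cd23-Cre Bhlha15(fl/fl). Cd23-Cre deletes floxed genes in B cells before they become PBs or PCs. Mist1 binding was read from 2 peak lists of a Bio-ChIP-seq experiment with Bhlha15(fl/fl) R26(BirA/BirA) PBs on day 4 of LPS stimulation.

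Cells that secrete antibodies translate large amounts of immunoglobulin and need a matching supply of amino acids, which they import through carriers of the SLC families or make themselves. When amino acids run short or the endoplasmic reticulum (ER) is loaded with unfolded protein, kinases such as GCN2 and PERK phosphorylate the initiation factor eIF2, general translation falls, and the messenger RNA of the transcription factor ATF4 is translated more. ATF4 binds C/EBP-ATF elements together with C/EBP partners, and its known targets include transporters, serine and asparagine synthesis enzymes, CHOP (Ddit3), Trib3, Chac1 and Sesn2. Another arm of the ER response runs through IRE1 and Xbp1, which raises the folding and secretion capacity of the cell. ATF4 itself is controlled largely at translation, so that its mRNA level need not follow its activity.

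The deleted genes were read first. Bhlha15 was at 176 and 159 TPM in control PBs, at 3.57 and 2.60 TPM in Xbp1-deleted PBs, and at 0.21 and 0.55 TPM in Bhlha15(CreER/CreER) PBs, so that both PB mutants had lost nearly all Mist1 mRNA. In PCs it fell from 258 and 242 TPM to 14.4 and 16.6 TPM. Xbp1 mRNA was at 3168 and 3043 TPM in control PBs and remained at 1981 and 2024 TPM in Xbp1-deleted PBs (1.79-fold lower after scaling), and a value per gene does not separate deleted from intact transcripts. Values are in TPM, a share of the transcripts of a library that is corrected for gene length and sums to 1000000, and the sequencing depth behind them is unknown.

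The promoters of the members were searched for the C/EBP-ATF element TGATGNAA, from 250 bases before to 50 bases after each annotated start site on both strands. It was present in 12 of the 40 members (30%), compared with 5.54% of all 22083 protein-coding genes and 4.45% of the protein-coding genes tested in both PBs and PCs. The core of the Xbp1 element, TGACGTG, was in the window of 1 member (2.5%, 3.0% of all genes), and the E-box CAGCTG, of the kind bound by Mist1, was in 9 members (22.5%, 22.9% of all genes). These shares describe the chosen list, which was drawn up from genes known to respond to ATF4, and a match is no evidence of binding. The windows below show 30 bases around each element with the element in capitals, read from the mm9 genome (NCBIM37, GENCODE M1 annotation) on the strand that reads TGATGNAA, because the element is the one through which ATF4 is known to act on such genes.
Asns, chr6:7643214-7643243 (-): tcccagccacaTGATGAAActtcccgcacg
Psph, chr5:130285441-130285470 (-): actctgtcaacTGATGTAAattttgtaatt
Aldh1l2, chr10:82996129-82996158 (+): tagaagtgatcTGATGCAAtcccacgtctg
Trib3, chr2:152169764-152169793 (+): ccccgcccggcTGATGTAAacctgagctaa
Chac1, chr2:119176774-119176803 (-): cctggcaggagTGATGCAAcggcagggaag
Slc6a9, chr4:117507990-117508019 (+): cctcgggaggcTGATGCAActttcccttta
Slc38a1, chr15:96472866-96472895 (-): tggggggaaacTGATGCAAccagccctggg
Slc1a4, chr11:20232702-20232731 (+): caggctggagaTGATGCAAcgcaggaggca
Pycr1, chr11:120505147-120505176 (-): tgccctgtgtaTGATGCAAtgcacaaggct
Got1, chr19:43599179-43599208 (+): ggaggcttgtaTGATGCAAccaatgcaatg
Atf3, chr1:193007304-193007333 (+): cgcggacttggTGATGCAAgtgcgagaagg
Slc7a11 also holds it, at 2 sites. Slc1a4, a carrier of neutral amino acids, passed the test in none of the 5 comparisons. Of the 11 tested members with the element, 6 rose and 2 fell on Xbp1 loss in PBs, compared with 18 and 2 of the 27 tested members without it, and among all protein-coding genes tested 13.5% rose and 18.0% fell with the element and 10.6% and 18.6% without it.

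Most members were higher in PBs that had lost Xbp1. Of 38 members tested, 24 rose and 4 fell at an adjusted p under 0.05, whereas among all 12125 genes tested 10.3% rose and 18.0% fell. The list was drawn up with earlier results of these data known, so this comparison describes the list and does not test it. The median log2 fold change was 0.57 over the members and 0.00 over all genes. With a stricter rule close to that of the study (a change above 3-fold that also passed the adjusted p, here with the higher group above 5 TPM on average), 6 members were higher and 1 was lower, beside 29 genes (0.239%) and 198 genes (1.63%) among all tested. The 6 members were Slc7a3, Slc6a9, Atf5, Ddit3, Trib3 and Vegfa, and the member that fell was Slc1a5. Deposited TPM without further scaling moved the median of all genes to 0.21 (log2) and turned the split over all genes from 1250 higher and 2186 lower to 3423 and 1357, while the members changed from 24 and 4 to 30 and 2, with Slc7a1, Slc1a4, Slc38a2, Shmt1, Mthfd1 and Aldh18a1 added to those that rose. In summed TPM, the 40 members together took 3760 TPM on average in control PBs, 6694 TPM in Xbp1-deleted PBs and 3615 TPM in Bhlha15(CreER/CreER) PBs.

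**Figure D1:**
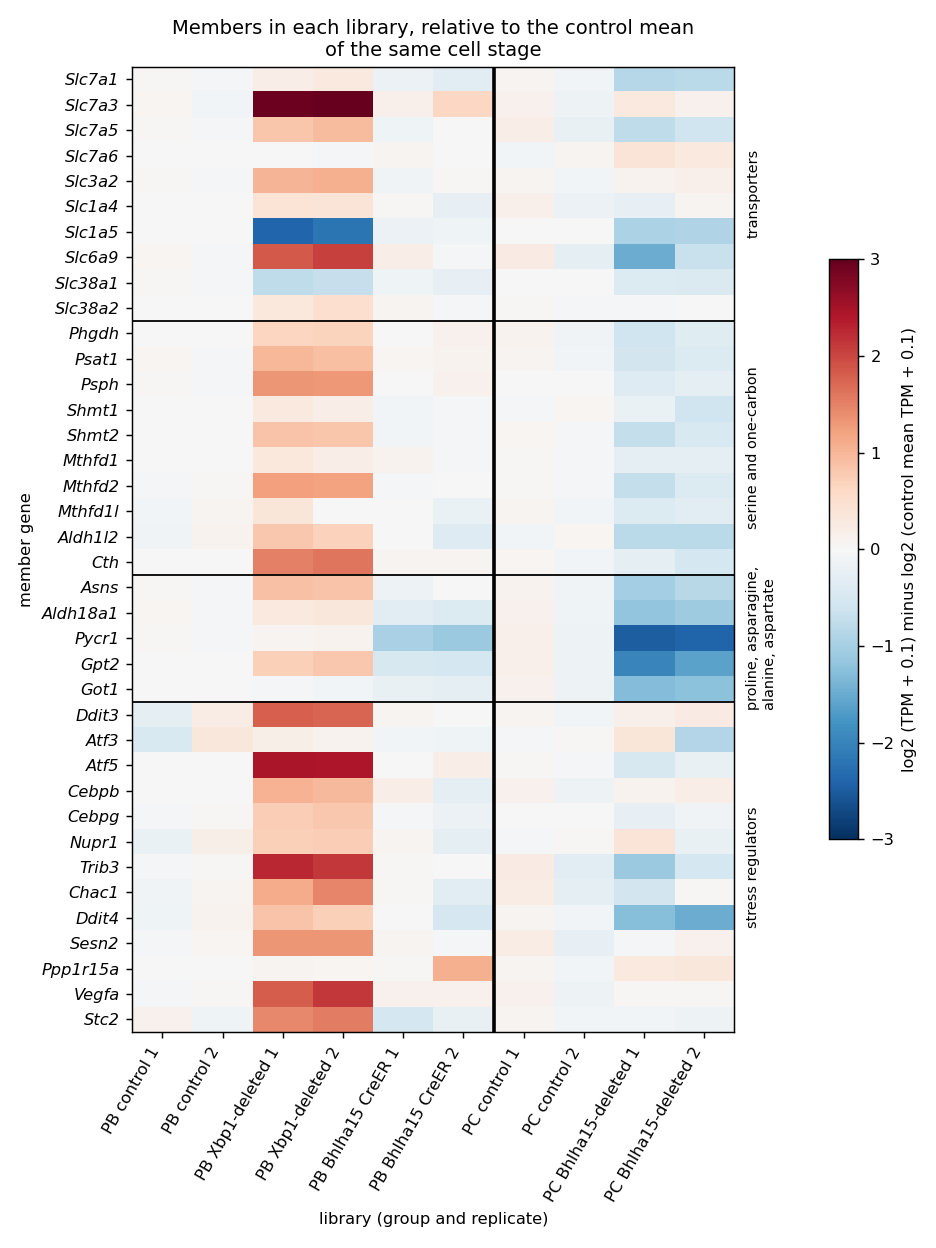
Heat map of the 38 members with a group mean of at least 1 TPM. Rows are genes ordered by class, columns are the 10 libraries, and colour gives log2 (TPM + 0.1) minus the log2 of the control mean of the same stage, from deposited TPM. Most serine enzymes and stress regulators are red in both Xbp1-deleted PB libraries. In Bhlha15-deleted PCs all 5 genes of proline, asparagine, alanine and aspartate synthesis are blue. Serine enzymes are blue there as well, as are rows of other classes such as Ddit4, Slc1a5 and Slc7a1.

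Among the stress regulators, 11 of 13 rose on Xbp1 loss in PBs and none fell. Atf5, a bZIP transcription factor of the ATF4 pathway (chr7:52067627-52072028), was at 99.6 and 100.1 TPM in control PBs, at 546 and 537 TPM in Xbp1-deleted PBs and at 101 and 115 TPM in Bhlha15(CreER/CreER) PBs. Of its 1992 exon bases, 82 overlap Il4i1 and Nup62 on the opposite strand. The Xbp1-deleted libraries stood apart from the other 4 (the share of all genes with such a gap was not computed). The change was 4.69-fold (log2 2.23 ± 0.11 SE, adjusted p = 3.1e-06). Trib3, a pseudokinase that restrains ATF4 and CHOP, was at 11.8 and 12.6 TPM in control PBs and at 58.5 and 53.0 TPM in Xbp1-deleted PBs, which was 3.93-fold higher (log2 1.97 ± 0.10, adjusted p = 3.8e-06).

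Ddit3 encodes CHOP, a transcription factor of prolonged ER stress. It was at 71.9 and 100 TPM in control PBs and at 299 and 291 TPM in Xbp1-deleted PBs, 3.01-fold higher (log2 1.59 ± 0.12, adjusted p = 3.2e-05), which lies just past the 3-fold threshold. Its exons overlap Mars on the opposite strand over 68 of 1713 bases. Without the first control library the log2 change was 1.39, under 3-fold, at an adjusted p of 0.00018, and without the first Xbp1-deleted library it was 1.56, also under 3-fold. Vegfa, a secreted angiogenic factor that ATF4 can induce, was at 86.6 and 91.8 TPM in control PBs and at 312 and 386 TPM in Xbp1-deleted PBs, 3.37-fold higher (log2 1.75 ± 0.11, adjusted p = 9.1e-06).

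Smaller rises were measured for Sesn2, Chac1 and Stc2. Sesn2, a sestrin that restrains mTORC1 when leucine is scarce, was at 51.3 and 55.6 TPM in control PBs and at 133 and 134 TPM in Xbp1-deleted PBs (log2 1.11 ± 0.07, adjusted p = 1.0e-05). Chac1, which degrades glutathione, went from 74.3 and 84.6 TPM to 172 and 219 TPM (log2 1.08 ± 0.13, adjusted p = 0.00039). For Stc2, a secreted glycoprotein, values of 4.58 and 3.81 TPM in control PBs stood against 11.6 and 12.4 TPM (log2 1.29 ± 0.20, adjusted p = 0.0017). No control library of these 3 genes reached the Xbp1-deleted values, and the share of all genes separated in this way was not computed. Cebpb, Cebpg, Nupr1 and Ddit4 rose by 0.53 to 0.80 on the log2 scale. Of the 1504 exon bases of Cebpb, 312 overlap Tmem189 on the opposite strand. Without the first control library the calls of Nupr1 and Ddit4 were lost (adjusted p = 0.069 and 0.078), and that of Ddit4 also without the first Xbp1-deleted library (0.056).

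Atf3 and Ppp1r15a were the 2 stress regulators that did not pass the test. Ppp1r15a encodes GADD34, which brings the phosphatase to eIF2 and ends the response, and it was at 60.4 and 59.8 TPM in control PBs and at 64.1 and 62.5 TPM in Xbp1-deleted PBs (log2 -0.13 ± 0.30, adjusted p = 0.79). The wide error of this gene comes with the second Bhlha15(CreER/CreER) library, which was at 126 TPM against 61.5 TPM in the first. Atf3 differed between the control libraries themselves, at 7.50 and 13.1 TPM.

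Serine and one-carbon enzymes followed the same direction, with 7 of 10 tested genes higher and none lower. All 3 enzymes of the serine pathway rose. Psph, the phosphatase of its last step, went from 82.7 and 79.5 TPM to 203 and 202 TPM (2.16-fold, log2 1.11 ± 0.10, adjusted p = 7.8e-05), Psat1, the aminotransferase before it, rose by 0.75 ± 0.10 on the log2 scale, and Phgdh, the entry enzyme, by 0.45 ± 0.10, a call lost without the second control library (adjusted p = 0.083). Mthfd2, a mitochondrial folate dehydrogenase, was at 95.8 and 101 TPM in control PBs and at 230 and 228 TPM in Xbp1-deleted PBs (2.02-fold, log2 1.01 ± 0.08, adjusted p = 5.2e-05).

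The folate enzymes were read by the compartment in which they act. The mitochondrial enzymes Shmt2, Mthfd2 and Aldh1l2 rose by 0.64, 1.01 and 0.55 on the log2 scale, while the cytosolic Shmt1 and Mthfd1 each had a log2 change of 0.04 (adjusted p = 0.81 and 0.73), and passed with TPM as deposited (0.25 for each, adjusted p = 0.034 and 0.049). The rise of Aldh1l2 was lost without either control library (adjusted p = 0.11 and 0.053) or the first Xbp1-deleted library (0.10). Mthfd1l, which is mitochondrial as well, had a log2 change of -0.03 ± 0.12 (adjusted p = 0.87). Cth, which releases cysteine from cystathionine, had the largest change of the class, from 33.3 and 32.7 TPM to 94.5 and 101 TPM (2.56-fold, log2 1.36 ± 0.09, adjusted p = 1.3e-05). Cbs, which makes cystathionine, stayed under 1 TPM in every library and was not tested.

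The transporters moved in both directions, with 4 of 10 tested genes higher and 3 lower. Slc7a3, a carrier of arginine and lysine (chrX:98274549-98281359), was at 14.8 and 13.4 TPM in control PBs, at 109 and 122 TPM in Xbp1-deleted PBs and at 15.7 and 21.8 TPM in Bhlha15(CreER/CreER) PBs. This was the largest rise of any member, 7.06-fold (log2 2.82 ± 0.18, adjusted p = 1.3e-05). Its relative Slc7a1, which carries the same amino acids, was at 65.4 and 62.6 TPM against 73.4 and 78.8 TPM, with a log2 change of 0.04 ± 0.08 after scaling (adjusted p = 0.75).

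Slc1a5, the glutamine exchanger ASCT2 (chr7:17366695-17383623), went the opposite way. It was at 391 and 400 TPM in control PBs and at 76.4 and 86.5 TPM in Xbp1-deleted PBs, 5.62-fold lower (log2 -2.49 ± 0.09, adjusted p = 1.0e-06). Slc38a1, another importer of glutamine, fell from 78.9 and 74.3 TPM to 45.1 and 47.5 TPM (log2 -0.93 ± 0.08, adjusted p = 7.5e-05). Slc38a2, which carries an overlapping set of amino acids, was at 131 TPM in both control libraries and at 165 and 186 TPM in the mutant (log2 0.21 ± 0.08, adjusted p = 0.094).

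Both chains of the exchanger LAT1, which brings in large neutral amino acids against glutamine, were higher. Its heavy chain Slc3a2 (CD98) was at 435 and 416 TPM in control PBs and at 857 and 894 TPM in Xbp1-deleted PBs (log2 0.83 ± 0.11, adjusted p = 0.00095). The light chain Slc7a5 went from 315 and 299 TPM to 544 and 588 TPM (log2 0.68 ± 0.11, adjusted p = 0.0021), whereas Slc7a6, another light chain of CD98, had a log2 change of -0.23 ± 0.07 (adjusted p = 0.045). The fall of Slc7a6, like that of Got1 described below, lost significance when any 1 of the 4 libraries compared was left out (adjusted p from 0.081 to 0.24) and with TPM as deposited (0.84 and 0.33). Slc6a9, a glycine carrier, rose from 8.23 and 7.55 TPM to 28.7 and 33.1 TPM (3.35-fold, log2 1.74 ± 0.12, adjusted p = 2.3e-05). A stretch of 1429 of its 5141 exon bases overlaps the gene Ccdc24 on the opposite strand, and whether the counting used the strand is not given in the sources used here.

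In the class of proline, asparagine, alanine and aspartate synthesis 2 genes rose and 1 fell on Xbp1 loss. Asns, asparagine synthetase, rose from 252 and 241 TPM to 456 and 448 TPM (log2 0.67 ± 0.11, adjusted p = 0.0022), and Gpt2, the mitochondrial alanine aminotransferase, from 18.0 and 18.3 TPM to 29.9 and 31.9 TPM (log2 0.56 ± 0.09, adjusted p = 0.0024). Got1 fell by 0.28 on the log2 scale (adjusted p = 0.019). The proline enzymes Aldh18a1 and Pycr1 had log2 changes of 0.11 ± 0.08 and -0.11 ± 0.08 and did not pass the test.

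**Figure D2:**
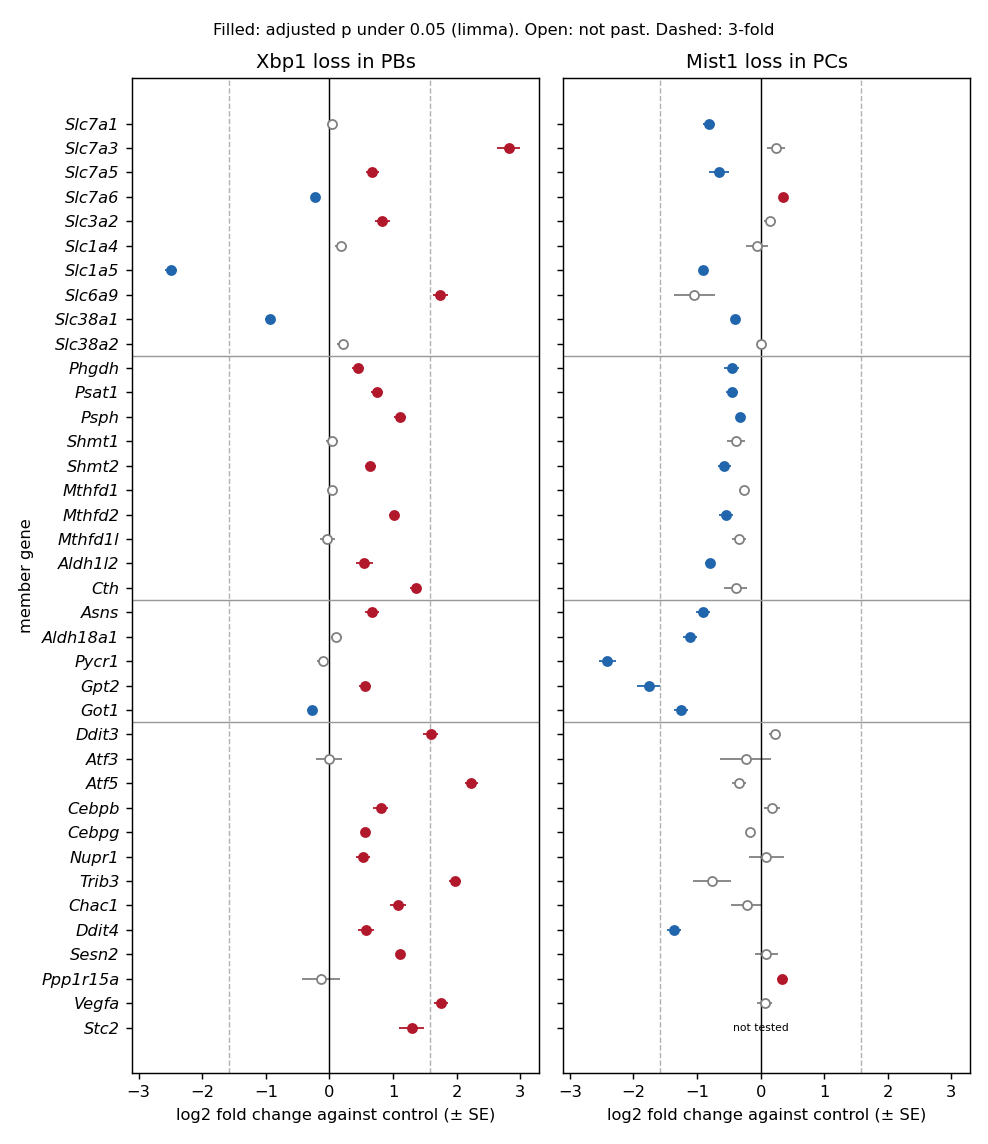
Log2 fold change against the control (x axis, with SE from limma) of each member tested in PBs (y axis, ordered by class) on Xbp1 loss in PBs (left) and on Mist1 loss in PCs (right). Filled points have an adjusted p under 0.05, and dashed lines mark 3-fold. On the left 24 points are red and 4 are blue, and on the right 2 are red and 16 are blue.

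The pathway above these targets was read from lists written by hand. Atf4 mRNA was at 515 and 561 TPM in control PBs, at 562 and 540 TPM in Xbp1-deleted PBs and at 542 and 635 TPM in Bhlha15(CreER/CreER) PBs, and it passed the test in none of the 5 comparisons (log2 -0.17 ± 0.12 on Xbp1 loss, adjusted p = 0.34). Of 17 genes of eIF2 kinases, eIF2 and eIF2B subunits and phosphatase subunits, 3 rose and 5 fell on Xbp1 loss. Among all genes tested the shares were 10.3% and 18.0%. The median log2 change of the 17 genes was -0.13. None passed the 3-fold rule. Eif2ak3, which encodes PERK, missed it narrowly: it was at 76.4 ± 1.91 TPM in control PBs and at 29.7 ± 0.43 TPM in Xbp1-deleted PBs (mean ± SD, n = 2), 2.97-fold lower (log2 -1.57 ± 0.08, adjusted p = 3.9e-06), and it is named because of this after its values were seen. In a list of 17 genes of amino acid sensing by mTORC1, 3 fell and none rose, and none passed the 3-fold rule. Of all genes tested 18.0% fell, a share close to that of this list.

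Amino acid carriers and enzymes outside the 40 genes were read from further lists. Of 12 tested carriers in a list of 24, 1 rose and 4 fell (10.3% and 18.0% of all genes), with a median log2 change of -0.08. Slc38a10, a widely expressed carrier of the SLC38 family, went from 219 and 218 TPM to 77.3 and 77.8 TPM, 3.26-fold lower (log2 -1.70 ± 0.07, adjusted p = 1.9e-06). Of 31 tested enzymes in a list of 35, 3 rose and 8 fell (10.3% and 18.0% of all genes), with a median of -0.01. Oat, which links ornithine to proline synthesis, was at 320 and 312 TPM in control PBs and at 118 and 124 TPM in Xbp1-deleted PBs, 3.01-fold lower (log2 -1.59 ± 0.09, adjusted p = 7.5e-06).

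Markers of other cells were detected in these libraries. The 10 fibroblast genes examined summed to between 1199 and 1432 TPM in control PBs, to between 1742 and 1892 TPM in Xbp1-deleted PBs and to between 955 and 1582 TPM in Bhlha15(CreER/CreER) PBs, with 8, 7 and 8 of the 10 at a mean of at least 1 TPM. The 10 neutrophil genes summed to at most 11.7 TPM in control PBs and to 137 and 138 TPM in Xbp1-deleted PBs, where Elane was at 0. Of these 10 genes, 4 in control and 7 in Xbp1-deleted PBs had a mean of at least 1 TPM. The 9 macrophage genes went from between 149 and 151 TPM to between 49.7 and 52.5 TPM and C1qa and Marco were at 0 in both groups. Only 3 of the 9 had a mean of at least 1 TPM in either group, so the sum rests on few genes. The 8 T cell genes summed to at most 13.6 TPM in any PB library. The 8 plasma cell markers summed to 41761 and 41765 TPM in control PBs and to between 21029 and 21660 TPM in Xbp1-deleted PBs, and the 8 B cell markers were at 947 to 986 TPM and 1058 to 1124 TPM. The part of these shifts in the results was not tested, and in bulk RNA a change in the share of a cell type cannot be told apart from a change of RNA per cell.

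Mist1 loss in PBs moved 1 member past the test. In Bhlha15(CreER/CreER) PBs none of the 38 tested members rose (0.0495% of all genes did) and 1 fell (0.272% of all genes), which was Pycr1. At an unadjusted p under 0.05, 1 member was higher and 5 were lower (limma), compared with 4.74% and 5.71% of all genes. Of these 5, 4 belonged to the class of proline, asparagine, alanine and aspartate synthesis (class median log2 change -0.33). Beside Pycr1, Gpt2 changed by -0.46 ± 0.09 on the log2 scale, Aldh18a1 by -0.33 ± 0.08 and Got1 by -0.21 ± 0.07. Gpt2, Aldh18a1 and Got1 did not pass the adjusted p, and Asns changed by -0.03 ± 0.11. Without the first Bhlha15(CreER/CreER) library Ppp1r15a rose (log2 1.19, adjusted p = 0.0023), where the library at 126 TPM stood alone in its group. No member passed the 3-fold rule, which 2 genes passed upward (0.0165%) and 4 downward (0.0330%) among all tested. The median log2 change of the members was -0.01.

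Pycr1 encodes the mitochondrial reductase that completes proline synthesis (chr11:120497026-120505083, minus strand). It was at 46.6 and 43.6 TPM in control PBs and at 22.8 and 20.9 TPM in Bhlha15(CreER/CreER) PBs, 2.00-fold lower (log2 -1.0 ± 0.08, adjusted p = 0.0030). The groups did not overlap (the share of all genes without overlap was not computed), but the call was lost without the first control library (log2 -0.91, adjusted p = 0.068). In Xbp1-deleted PBs, which also had almost no Bhlha15 mRNA, Pycr1 was at 48.0 and 48.9 TPM. The difference between the mutants was 1.86-fold (log2 0.89 ± 0.08, adjusted p = 0.00012).

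The mutants were compared directly because both share the control libraries. Between Xbp1-deleted and Bhlha15(CreER/CreER) PBs, 27 of 38 members were higher in the Xbp1-deleted cells and 3 were lower, compared with 9.34% and 17.8% of all genes tested. Deposited TPM moved the median of all genes from 0.01 to 0.26 and turned the split over all genes from 1132 higher and 2155 lower to 3977 and 1266, while the members changed from 27 and 3 to 31 and 2. By the 3-fold rule 5 were higher (0.239% of all genes) and 1 was lower (1.66%). The 5 were Slc7a3, Slc6a9, Atf5, Trib3 and Stc2, and the member lower was Slc1a5, at 352 and 364 TPM in Bhlha15(CreER/CreER) PBs (5.23-fold, log2 -2.39 ± 0.09, adjusted p = 1.2e-06). Stc2 was at 2.86 and 3.55 TPM in these cells and 3.10-fold higher in the Xbp1-deleted ones (log2 1.63 ± 0.20, adjusted p = 0.00047). Outside the 40 genes, Slc38a10 and Oat were 3.13-fold and 3.57-fold lower in the Xbp1-deleted cells, past the same rule.

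Genes of proline and alanine synthesis were among those higher in the Xbp1-deleted cells than in the other mutant. Gpt2 was at 13.0 and 12.5 TPM in Bhlha15(CreER/CreER) PBs and at 29.9 and 31.9 TPM in Xbp1-deleted PBs, 2.03-fold apart after scaling (log2 1.02 ± 0.09, adjusted p = 8.2e-05). Aldh18a1, the synthase of the first steps of proline synthesis, was at 138 and 134 TPM and at 217 and 222 TPM in the same groups (log2 0.44 ± 0.08, adjusted p = 0.0060). Against control PBs, Gpt2 changed by 0.56 on the log2 scale in Xbp1-deleted PBs and by -0.46 in Bhlha15(CreER/CreER) PBs. Aldh18a1 changed by 0.11 and -0.33 in the same way, with neither value past the test. Got1 differed by -0.06 ± 0.07 on the log2 scale (adjusted p = 0.53), and by 0.19 in the opposite direction with TPM as deposited (adjusted p = 0.024).

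On Mist1 loss in PCs most of the members that passed the test were lower. Of 37 members tested, 16 fell and 2 rose at an adjusted p under 0.05, compared with 16.2% and 13.3% of all 12028 genes tested. The median log2 change was -0.38 over the members and 0.01 over all genes. As above, the list was chosen with earlier results known, so the comparison only describes it. The 3-fold rule was passed by 2 members downward, Pycr1 and Gpt2, beside 87 genes (0.723%) among all tested, and by none upward, beside 15 genes (0.125%). The count of 16 rested on the first Bhlha15-deleted library, without which 9 members fell, while leaving out any other library gave between 12 and 21.

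All 5 genes of proline, asparagine, alanine and aspartate synthesis fell, with a median log2 change of -1.25. Pycr1 was at 107 and 86.2 TPM in control PCs and at 17.2 and 18.3 TPM in Bhlha15-deleted PCs, 5.31-fold lower (log2 -2.41 ± 0.13, adjusted p = 0.0011). Gpt2 (chr8:88016475-88051459) fell from 19.6 and 16.0 TPM to 4.45 and 5.81 TPM, 3.39-fold (log2 -1.76 ± 0.18, adjusted p = 0.0028), and was just under 3-fold, at log2 changes of -1.58 and -1.57, without the first control or the first Bhlha15-deleted library.

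The other 3 enzymes of the class fell by about 2-fold. Got1, the cytosolic aspartate aminotransferase (chr19:43574242-43599095), was at 158 and 131 TPM in control PCs and at 58.4 and 61.1 TPM in Bhlha15-deleted PCs (2.38-fold, log2 -1.25 ± 0.11, adjusted p = 0.0021). Aldh18a1 went from 228 and 189 TPM to 91.5 and 98.9 TPM (2.15-fold, log2 -1.11 ± 0.12, adjusted p = 0.0028). Asns, which had risen on Xbp1 loss in PBs, fell here from 101 and 87.9 TPM to 46.4 and 52.6 TPM (1.88-fold, log2 -0.91 ± 0.11, adjusted p = 0.0039). In the list of enzymes outside the 40 genes 13 of 31 tested fell and 2 rose (16.2% and 13.3% of all genes). Their median log2 change was -0.23.

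**Figure D3:**
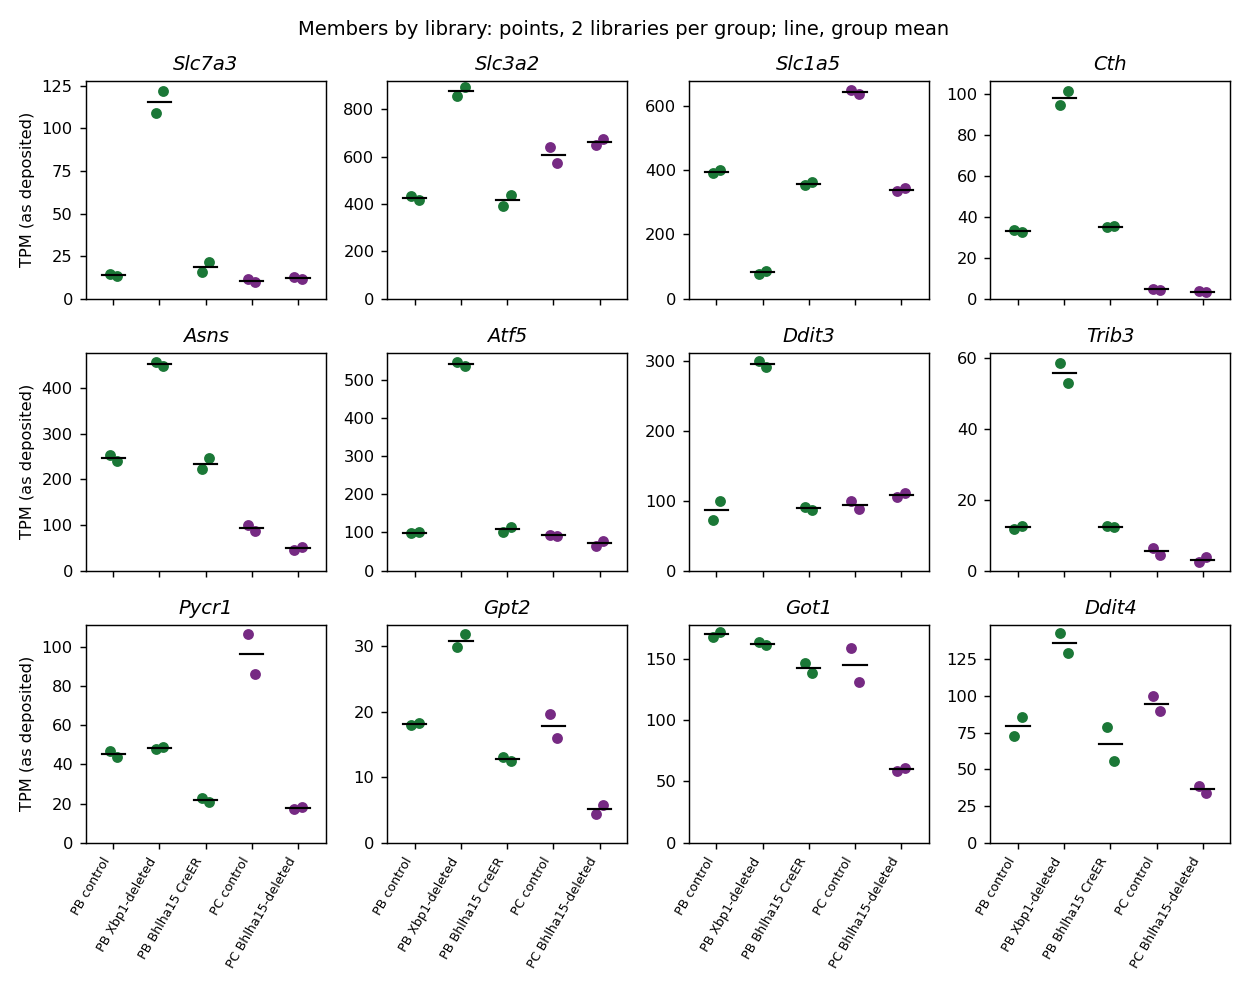
Deposited TPM (y axis, linear from 0) of 12 members in the 5 groups (x axis). Points are the 2 libraries of a group, green for PBs and purple for PCs, and the line is their mean. Slc7a3, Atf5, Ddit3 and Trib3 are high in Xbp1-deleted PBs alone, Slc1a5 is low there, and Pycr1, Gpt2 and Got1 are lowest in Bhlha15-deleted PCs.

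Serine and one-carbon enzymes were lower in 6 of 10 tested genes on Mist1 loss in PCs, and none was higher. Without the first Bhlha15-deleted library the 6 became 1, Aldh1l2, and without the second they became 3. The changes were smaller than in the proline class, from -0.32 for Psph to -0.79 for Aldh1l2 on the log2 scale. Aldh1l2, a mitochondrial folate enzyme, went from 24.3 and 26.8 TPM to 14.5 and 14.6 TPM (log2 -0.79 ± 0.08, adjusted p = 0.0025). Shmt2, which passes the carbon of serine to folate in mitochondria, was at 299 and 279 TPM in control PCs and at 176 and 209 TPM in Bhlha15-deleted PCs (log2 -0.57 ± 0.10, adjusted p = 0.013). Psat1 went from 94.3 and 84.0 TPM to 61.2 and 67.5 TPM (log2 -0.45 ± 0.10, adjusted p = 0.021).

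Of the transporters, 4 fell and 1 rose among 10 tested, which became 2 and 0 without the first Bhlha15-deleted library and 3 and 0 without the second. Slc1a5 was at 649 and 637 TPM in control PCs and at 334 and 346 TPM in Bhlha15-deleted PCs (1.87-fold lower, log2 -0.90 ± 0.06, adjusted p = 0.0013). Slc7a1 fell from 56.4 and 49.7 TPM to 29.3 and 30.1 TPM (1.76-fold, log2 -0.81 ± 0.10, adjusted p = 0.0037), while Slc7a3, which carries the same amino acids, was at 11.6 and 9.52 TPM and at 13.0 and 11.6 TPM (log2 0.24 ± 0.14, adjusted p = 0.26). Slc7a5 went from 211 and 159 TPM to 109 and 123 TPM (log2 -0.65 ± 0.16, adjusted p = 0.029), a call lost without either Bhlha15-deleted library (adjusted p = 0.12 and 0.084), and its partner Slc3a2 was at 640 and 571 TPM and at 649 and 673 TPM (adjusted p = 0.25).

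Among the stress regulators 1 of 12 tested genes was lower and 1 was higher, with a median log2 change of -0.05. Ddit4, which encodes the mTORC1 inhibitor REDD1 (chr10:59412423-59414518), was at 100 and 89.4 TPM in control PCs and at 38.9 and 33.7 TPM in Bhlha15-deleted PCs (2.57-fold lower, log2 -1.36 ± 0.11, adjusted p = 0.0016). Ppp1r15a rose from 328 and 296 TPM to 384 and 397 TPM (log2 0.34 ± 0.08, adjusted p = 0.029), which was lost without either Bhlha15-deleted library (adjusted p = 0.11 and 0.18). Ddit3 was at 100 and 88.3 TPM and at 105 and 111 TPM (adjusted p = 0.12), and Atf5 at 94.2 and 90.2 TPM and at 65.5 and 78.8 TPM (adjusted p = 0.056). Atf4 mRNA was at 842 and 801 TPM in control PCs and at 911 and 976 TPM in Bhlha15-deleted PCs (log2 0.22 ± 0.08, adjusted p = 0.079). In the other lists, 2 of 17 genes around eIF2 rose and 4 fell, 2 of 15 further carriers rose and 3 fell, and 1 of 16 mTORC1 genes moved each way. Among all 12028 genes tested 13.3% rose and 16.2% fell, and counts from lists this small are not read as a difference from these shares.

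Both comparisons can be set side by side, since they share no library. Among the 37 members tested in both, 10 rose on Xbp1 loss in PBs and fell on Mist1 loss in PCs: Slc7a5, 6 serine and one-carbon enzymes (Phgdh, Psat1, Psph, Shmt2, Mthfd2 and Aldh1l2), Asns, Gpt2 and Ddit4. This was 27% of the members, and 122 of all 10965 genes tested in both (1.11%) had the same pattern. Of the 37 members, 23 rose on Xbp1 loss and 16 fell on Mist1 loss in PCs. A larger overlap than over all genes follows from these high counts, and whether it goes beyond them was not tested. Without the first Bhlha15-deleted library 4 of the 10 remained (Aldh1l2, Asns, Gpt2 and Ddit4), beside 0.413% of all genes. A further 13 rose on Xbp1 loss and did not pass the test in PCs, and 9 of these were stress regulators. Slc1a5, Slc38a1 and Got1 fell in both, Pycr1, Aldh18a1 and Slc7a1 fell in PCs and did not pass the test on Xbp1 loss, and no member rose in both. The comparisons differ in culture, sort and control, and the difference between Xbp1 loss in PBs and Mist1 loss in PCs was not tested.

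The cell type markers were summed for PCs as well. The 8 plasma cell markers summed to between 91316 and 97311 TPM in control PCs and to between 96658 and 98451 TPM in Bhlha15-deleted PCs, and the 8 B cell markers to between 988 and 1333 TPM and to between 773 and 851 TPM. Neutrophil genes summed to between 473 and 1004 TPM and to between 572 and 864 TPM, T cell genes to 75.5 to 76.2 TPM and 85.3 to 109 TPM, and macrophage genes to 250 to 252 TPM and 211 to 258 TPM. The 10 fibroblast genes were at 31.4 TPM in sum or less, with Lum and Postn at 0 in Bhlha15-deleted PCs. Their part in the result was not tested.

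The change on Mist1 loss differed between PCs and PBs for 10 of 38 members, all with the more negative value in PCs, compared with 4.17% of all 13230 genes tested, while none differed the other way (1.94% of all genes). With quantile normalization the split over all genes changed from 257 higher and 552 lower to 533 and 687. At an unadjusted p under 0.05, 21 members were lower and 1 was higher (limma), compared with 11.9% and 10.1% of all genes. The 10 included all 5 genes of proline, asparagine, alanine and aspartate synthesis, with differences from -0.76 for Aldh18a1 to -1.39 for Pycr1 on the log2 scale, together with Slc1a5, Slc7a1, Psat1, Shmt2 and Ddit4. The stages differ also in the mutant allele, the sort, the culture and the control, and these cannot be told apart from the stage. Without either control PB library, the first control PC library or the first Bhlha15-deleted library, the count was 5 or 6.

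**Figure D4:**
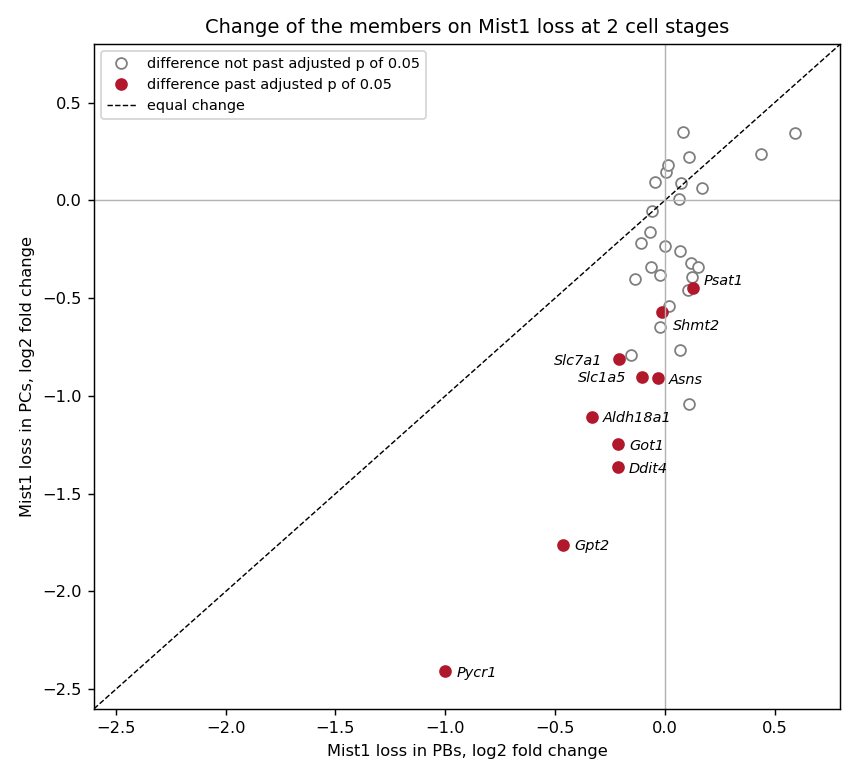
Log2 fold change on Mist1 loss in PBs (x axis) and in PCs (y axis) of the 37 members tested at both stages. Filled points are the 10 members whose difference between the stages had an adjusted p under 0.05, and the dashed line marks equal change. The filled points lie below the line, with Pycr1 lowest on both axes.

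Mist1 regions found in both peak lists were present within 1 kb of a start site for 31 of the 40 members (77.5%), compared with 35.8% of all protein-coding genes and 68.6% of the protein-coding genes tested in PBs and PCs. Among the 37 members tested in both the share was 81.1%. Within 10 kb the shares were 85.0% of members and 54.0% of all protein-coding genes. Among genes tested in both they were 89.2% of members and 85.8% of protein-coding genes, which were close to each other. The 5 genes of proline, asparagine, alanine and aspartate synthesis each had such a region at a start site. Of the 30 tested members with a region at a start site, 14 fell on Mist1 loss in PCs (46.7%), and 2 of the 7 without one fell (28.6%), while among all protein-coding genes tested the shares were 21.2% and 7.96%. Slc7a3, Psph, Atf5, Atf3, Cbs and Stc2 had no region within 10 kb.

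Pycr1, the member with the largest change on Mist1 loss, had 6 regions within 10 kb of the gene. Only the region over its start (chr11:120503719-120505669, 1951 bp) overlapped the gene, and whether the others belong to neighbouring genes was not tested. The region over the start held 8 E-boxes of the form CAGCTG, and 158 of all 23806 common regions (0.664%) held as many or more. Wider regions have room for more E-boxes, and this share was not matched for width. A stretch of an intron with 2 of them is shown on the gene's strand, from chr11:120504319-120504414, together with 56 bases from the region at Gpt2, chr8:88015452-88015507, which lie upstream of its start and hold 1 E-box. The E-boxes are in capitals.
Pycr1: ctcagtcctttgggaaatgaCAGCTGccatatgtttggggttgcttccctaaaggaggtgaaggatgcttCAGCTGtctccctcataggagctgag
Gpt2: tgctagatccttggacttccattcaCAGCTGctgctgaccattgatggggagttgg
In the same class the regions over the starts of Aldh18a1 (chr19:40661828-40663482) and Got1 (chr19:43597825-43599508) held none. Of the 77 common regions within 10 kb of members, 48 (62.3%) held a CAGCTG, compared with 67.0% of all common regions.

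The levels of the members differed between the cell stages, which were described without a test because culture, sort and library set differ. Of 38 members at 1 TPM or more in either control, 12 were at least 2-fold lower in control PCs than in control PBs, 4 were at least 2-fold higher and 22 lay within 2-fold. These counts rest on TPM as deposited, and the matching shares over all genes were not computed. They do not show whether the members differ from other genes. RNA of other cells differed as well. The 10 fibroblast genes summed to 1199 to 1432 TPM in control PBs and to 25.8 to 27.3 TPM in control PCs. Neutrophil genes went the other way, from 10.4 to 11.7 TPM in control PBs to 473 to 1004 TPM in control PCs. The part of feeder or other cells in the member levels was not tested. Nupr1 was at 54.4 and 69.8 TPM in control PBs and at 2.07 and 2.19 TPM in control PCs, and Cth at 33.3 and 32.7 TPM against 4.70 and 4.26 TPM. Higher in PCs were Ppp1r15a (5.19-fold), Aldh1l2 (3.21-fold), Slc38a2 (2.48-fold) and Pycr1 (2.14-fold), in ratios of mean TPM. Slc3a2 had the highest level of the members in all 3 PB groups and in Bhlha15-deleted PCs, and Slc1a5 in control PCs, where it stood at 643 TPM on average against 606 TPM for Slc3a2, whose libraries reached 640 TPM. Slc7a11, the light chain of the cystine exchanger, stayed under 1 TPM in every library.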

How the data were processed

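RNA-seq reads were processed by the authors with cutadapt, STAR 2.4.2 (mm9) and featureCounts 1.5, and the deposited values are TPM computed without immunoglobulin and T cell receptor genes. TPM keep no read depth, so no counting interval is given. The peak lists were called by the authors with MACS and give positions alone. Of the members, Shmt2, Ddit3, Atf5 and Slc6a9 carry a name suffix that reads as a mark of overlapping genes. Cebpb, Shmt1 and Ppp1r15a carry no suffix but also share exon bases with genes on the opposite strand.

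The members and lists were chosen with earlier results of these data known. TPM were scaled by the median of ratios, and genes with at least 1 TPM in 2 libraries were fitted as log2 (scaled TPM + 0.1) with limma 3.58.1 (R 4.3.3, eBayes with trend), with Benjamini-Hochberg adjustment over all genes: 6 PB libraries (12125 genes), 4 PC libraries (12028) and all 10 for the difference between stages (13230). Fold changes are on this scale and understate the change of low genes. The fit was tested on simulated data. Members past the 3-fold rule, past an adjusted p of 0.05 with a change above 2-fold, or past it in the difference between stages are named with values, and other members that a comparison turns on are named beside them. From the other lists, genes past the 3-fold rule and Atf4 are named, with the exception of an item that is not reported here. Stages follow the sample labels, although the series text names the Xbp1(fl/fl) libraries plasma cells and the Cd23-Cre Bhlha15(fl/fl) libraries plasmablasts. Nothing in the labels says whether the 2 libraries of a group came from separate mice, so p-values measure the spread between libraries, which may be technical. An exact permutation test of 2 against 2 libraries cannot go below p = 0.333 and was not used. Peaks sharing at least 1 bp (bedtools 2.31.1, Python 3.11.15) were merged to common regions and set against GENCODE M1 on NCBIM37, whose chromosomes match mm9. Transcripts of other genes with at least 95% identity over 200 bases (blastn 2.17.0) were found for 3 members, Phgdh, Slc6a9 and Slc7a11. The closing section gives the effect of unscaled TPM, quantile scaling, a pseudocount of 1 or 0.01, looser and stricter filters, a variance model without trend, fits of the compared groups alone, leaving out each library, and other peak rules.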

Additional observations from a re-analysis of the deposited data

Results flagged for a closer look

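The change on Mist1 loss in PCs minus that in PBs passed an adjusted p of 0.05 in the interaction of the limma fit for 10 members, all with the more negative change in PCs. On the log2 scale the difference was -1.39 ± 0.15 for Pycr1 (SE, adjusted p = 0.0050), -1.28 ± 0.21 for Gpt2 (0.012), -1.13 ± 0.20 for Ddit4 (0.017) and -1.02 ± 0.13 for Got1 (0.0077). It was -0.86 ± 0.15 for Asns (0.017), -0.78 ± 0.10 for Slc1a5 (0.0077), -0.76 ± 0.14 for Aldh18a1 (0.019), -0.59 ± 0.12 for Slc7a1 (0.024), -0.56 ± 0.14 for Psat1 (0.046) and -0.54 ± 0.13 for Shmt2 (0.046). Under every leave-one-out fit and every other alternative run, Pycr1, Gpt2, Got1 and Slc1a5 stayed past the threshold, whereas the other 6 lost it in at least 1 of them. The allele, the culture, the sort and the control differ between the stages together with the cell stage and cannot be told apart from it. Groups of 2 libraries are too small for a search for single libraries that stand apart.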

How the results depend on the processing

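No paired analysis was possible because replicate numbers were given in accession order and pair no libraries. On Xbp1 loss in PBs, 24 members rose and 4 fell. The 4 became 2 with TPM as deposited, with quantile normalization and with eBayes without the trend, as Slc7a6 and Got1 were lost, the rises of Phgdh and Ddit4 were lost without the trend (adjusted p = 0.052 and 0.053), and leaving out 1 library gave 21 to 24 that rose, 2 to 4 that fell (2 without any 1 of the 4 libraries compared) and 5 to 6 by the 3-fold rule. On Mist1 loss in PBs, the 1 member that fell became 2 with deposited TPM or quantile normalization and 0 without the trend (Pycr1, adjusted p = 0.051), and leaving out 1 library gave 0 to 1 in each direction. Between the mutants, the 5 members past the 3-fold rule became 3 with a pseudocount of 1. On Mist1 loss in PCs, the 16 that fell became 10 without the trend and 9 to 21 with a library left out (9 without the first Bhlha15-deleted library). The 2 that rose became 1 with no filter on low values, 0 without the trend, and 0 to 5 with a library left out (5 without the first control, 0 without either Bhlha15-deleted library), and the 2 past the 3-fold rule became 1 to 2, with Gpt2 lost without the first control or the first Bhlha15-deleted library. For the difference between the stages, the 10 became 4 without the trend and 5 to 14 with a library left out (5 or 6 without either control PB library, the first control PC library or the first Bhlha15-deleted library), and the 0 in the other direction became 1 with quantile normalization (Slc7a6). Reversed values concerned members that did not pass the test in the comparison. On Xbp1 loss, Slc7a1 ranged from -0.033 to 0.12, Shmt1 from -0.026 to 0.10 and Mthfd1 from -0.026 to 0.10 on the log2 scale with a library left out. Between the mutants, Shmt1 ranged from -0.040 to 0.16 in the same way, and Got1 became 0.19 with deposited TPM and 0.12 with quantile normalization. For the difference between the stages Ppp1r15a ranged from -0.81 to 0.34. Of the 40 members, 31 with a Mist1 region at a start site became 28 when peaks had to share at least 50% of each, and 31 within 2.5 kb. The causes of these shifts were not tested. Without read depth, the precision of low values such as Stc2 or Slc6a9 cannot be given.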
